A study of Homo sapiens with 4 samples.

Results

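Notch signalling was followed in T24 cells through 10 genes, the ligands JAG1, JAG2, DLL1 and DLL4, the receptors NOTCH1, NOTCH2, NOTCH3 and NOTCH4, and the target genes HES1 and HEY1. They were taken by gene name from a table of 60623 genes, and all 10 were found. The pathway was chosen by the rise of JAG2 between the groups compared here, so the change of JAG2 is described without a test and supports nothing else. T24 is a line grown from a human bladder carcinoma, and CBX7 is a chromodomain subunit of Polycomb repressive complex 1, which silences genes mostly at CpG-rich promoters. RNA was sequenced from 2 libraries of control cells (CON) and 2 libraries of cells that overexpressed CBX7 (CBX7). Both groups were grown in the same medium, RPMI with fetal calf serum, with no other treatment named. Neither the labels nor the methods say whether the libraries of a group came from separate cultures, and the vector of the control cells is not given in the sources used here.

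Notch receptors are single-pass proteins that are activated by ligands on a neighbouring cell. Ligand binding leads to cleavage by ADAM proteases and gamma-secretase, and the freed intracellular part of the receptor joins RBPJ and a Mastermind protein on DNA. HES and HEY genes, which encode transcriptional repressors, are the classical targets of this complex, and NRARP encodes a feedback inhibitor of it. In the urinary tract the pathway is known for effects that differ between contexts, and receptor mutations that reduce its activity occur in bladder cancer.

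The deposited estimated counts summed to between 20800910 and 25135488 per library. CBX7 itself was about 10.3 CPM (counts scaled to the library total after TMM normalization) in control cells and 1685 CPM in CBX7 cells, so the labels of all 4 libraries matched the overexpressed gene. The 5 epithelial genes (KRT7, KRT8, KRT18, KRT19 and EPCAM) summed to 3248 and 3151 TPM (relative transcript abundance, scaled for gene length) in CON and to 3730 and 3351 TPM in CBX7. The 3 mesenchymal genes, VIM above all, summed to 2816 and 2793 TPM in CON and to 2245 and 2292 TPM in CBX7. In CPM the groups overlapped for VIM, at 3515 and 3329 in CON and 3335 and 2680 in CBX7. Its log2 fold change on counts was -0.19 (SE 0.15). The groups also overlapped in CPM for ZEB1, and CDH2 was lower in both CBX7 libraries (log2 fold change -0.23, SE 0.16). KRT19 had 7.64 and 6.64 TPM in CON and 17.3 and 15.1 TPM in CBX7, a log2 fold change on counts of 1.35 (SE 0.23, adjusted p = 0.352, edgeR). In CPM KRT18 was also higher in both CBX7 libraries (0.30, SE 0.18), while the groups overlapped for KRT7, KRT8 and EPCAM. Of 7 urothelial genes, 4 (UPK1A, UPK1B, UPK2 and UPK3A) were at or under 3 counts on average in both groups, while PPARG had 22.8 to 25.9 TPM, FOXA1 had 6.78 to 9.36 TPM, and GATA3 had counts of 3 and 4 in CON and of 14 and 22 in CBX7. Also at or under 3 counts in both groups were 4 of 6 endothelial genes (PECAM1, KDR, TEK and VWF) and the immune genes PTPRC, CD3E and LYZ, while CD68 had 11.5 and 9.45 TPM in CON and 6.29 and 6.99 TPM in CBX7, and the part of these differences in the results was not tested. The 5 fibroblast genes summed to 2.24 and 2.23 TPM in CON and to 2.35 and 6.34 TPM in CBX7. Most of the last value was COL1A1, whose deposited TPM (0.88 and 4.4 in CBX7) did not follow its counts (87 and 106). The ratio of CBX7 replicate 1 to CON replicate 1 fell with gene length (Spearman rho -0.62 across genes, which are not independent replicates). That of CBX7 replicate 2 to CON replicate 2 did not (0.042). A value corrected for length and GC content is given for some results. The other values are not corrected and may also move with this trend.

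The control regions of the genes on which the results turn are shown first, from RefSeq windows of GRCh38.p14 that hold 250 bases before and 50 bases after the start of a gene. Of the 10 genes, 8 were matched to a window. The JAG2 window held 46 CpG dinucleotides, more than 97.4% of 35116 RefSeq windows, against 24 in the JAG1 window and a median of 14 over all windows. The windows of the other matched members held 42 (NOTCH1), 37 (NOTCH3), 33 (NOTCH2), 27 (DLL4), 21 (HES1) and 5 (NOTCH4). Among the other Notch targets the windows held 46 (NRARP), 45 (HES5), 44 (HES4), 43 (HEY2), 41 (HEYL) and 16 (HES7). A high CpG count was thus not particular to JAG2. The 150 bases that end upstream of both the RefSeq and the GENCODE start are printed for the Jagged ligands, JAG2 from chr14:105168825-105168974 and JAG1 from chr20:10674000-10674149, both on the minus strand and written 5′ to 3′ with each CpG in capitals, because these are the ligands with counts well above the limit of detection.
JAG2: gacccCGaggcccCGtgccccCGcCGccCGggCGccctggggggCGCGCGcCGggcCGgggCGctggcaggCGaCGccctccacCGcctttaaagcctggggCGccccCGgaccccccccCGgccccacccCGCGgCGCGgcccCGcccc
JAG1: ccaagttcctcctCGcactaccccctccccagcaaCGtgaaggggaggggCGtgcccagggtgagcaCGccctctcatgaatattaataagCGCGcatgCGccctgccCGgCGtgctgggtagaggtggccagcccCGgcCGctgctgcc
Within these 150 bases JAG2 held 23 CpG dinucleotides and JAG1 held 11.

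The windows were also searched on both strands for GTGGGAA, the core of the RBPJ motif, which 6.25% of all windows held. None of the 8 matched members held it except HES1. Among the other Notch targets, HES4 and HEYL held it once each and HES5 and HEY2 held it 2 times each, while the NRARP and HES7 windows did not contain these letters. HEY1, MYC, CCND1 and DTX1 were not matched to a window and were not searched. The 30 bases around the match are printed for HES1, from chr3:194136052-194136081 on the plus strand, and for HES4, from chr1:1000156-1000185 on the minus strand, because these are the targets, among those with enough counts and a matched window, whose windows held the motif. It lies 85 and 77 bases before the start, and 1 of the matches of HES5, which had no count in any library, lies at 81 bases. The capitals mark the motif.
HES1: tgaaagttactGTGGGAAagaaagtttggg
HES4: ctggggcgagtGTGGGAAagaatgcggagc
A match is a description of the sequence and not of binding.

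JAG2 was the ligand with the widest difference between the groups among the 4. JAG2 (ENSG00000184916, chr14:105140981-105168824, GENCODE release 29 on GRCh38), a Jagged ligand of Notch receptors, had counts of 53 and 42.2 in CON and of 557 and 435 in CBX7. Its level was 0.64 and 0.48 TPM in CON and 7.09 and 7.64 TPM in CBX7. Both CBX7 libraries lay above both CON libraries, and the log2 fold change on counts was 3.33 (standard error, SE, 0.19), at rank 5 of the 14862 genes with enough counts to be tested. In the quasi-likelihood F test of edgeR, 3 of those genes (0.0202%) passed a Benjamini-Hochberg adjusted p of 0.05, and this count includes JAG2 beside CBX7 and EEF1A2. The pathway was selected on the value of JAG2, so its place in that count is no test and nothing is read from it. In these bulk libraries more cells that express a gene and more RNA per cell cannot be told apart.

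JAG1, the other Jagged ligand, did not move with JAG2. It had counts of 370 and 332 in CON and of 292 and 325 in CBX7, or 15.5 and 15.8 CPM against 12.1 and 14.5 CPM. The CBX7 libraries lay below the CON libraries in CPM, by a log2 fold change of -0.23 (SE 0.16), and JAG1 was the single member with this pattern. Among all tested genes, 15.4% had CBX7 libraries that lay wholly above the CON libraries and 14.8% wholly below, so 1 member below and 1 above (JAG2) among the 6 with enough counts is not read as a result. Without CBX7 replicate 1 the value of JAG1 was -0.10, without CBX7 replicate 2 it was -0.37, and after the correction for length and GC content it was -0.13. In TPM the values of JAG1 were 4.07 and 4.46 in CON and 2.49 and 4 in CBX7.

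The Delta-like ligands were close to the limit of detection. DLL1 had counts of 7 and 0 in CON and of 5 and 7 in CBX7, and DLL4 had 2 and 0 in CON and 0 and 4 in CBX7. The groups overlapped for both genes. DLL4 averaged at or under 3 counts in both groups, the limit that a count of 0 allows (0.119 to 0.144 CPM in these libraries, for counting error alone), so no fold is given for it. A difference of a few counts in either gene was not detectable at this depth.

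The order of the ligands changed with the group. The 4 ligands together summed to 4.89 and 4.94 TPM in CON and to 9.64 and 11.8 TPM in CBX7. JAG1 made up 83.2% and 90.3% of this sum in CON, and JAG2 13.1% and 9.72%. In CBX7 cells JAG2 made up 73.6% and 64.5%, and JAG1 25.8% and 33.8%. JAG1 was thus the most abundant ligand in both CON libraries and JAG2 in both CBX7 libraries.

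**Figure D1:**
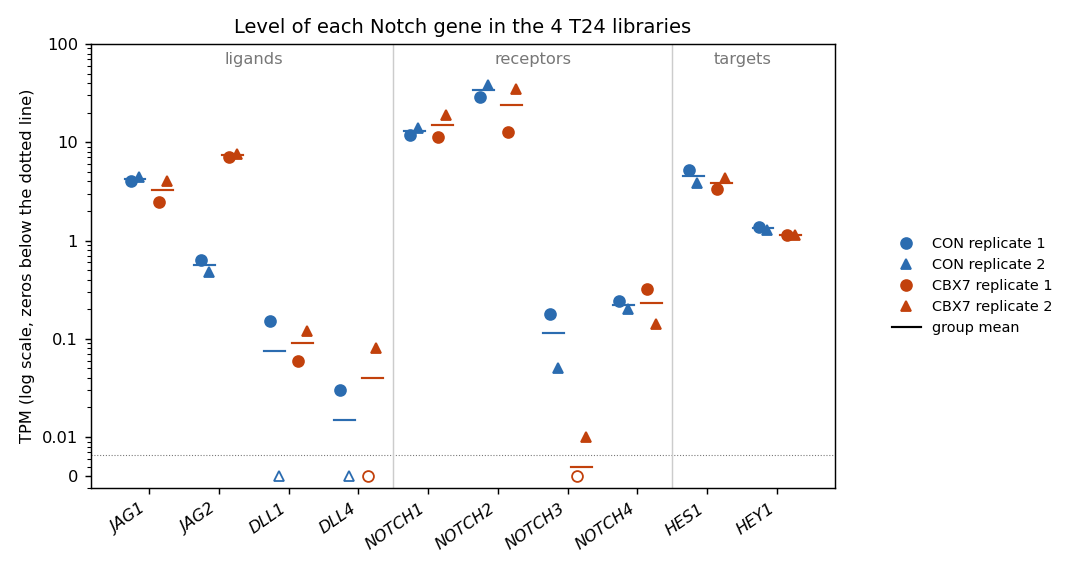
Level of each of the 10 Notch genes in TPM on a log axis, with zeros drawn below the dotted line, CON in blue and CBX7 in orange, replicate 1 as circles and replicate 2 as triangles, and group means as lines. JAG2 lies at 0.48 and 0.64 TPM in CON and at 7.09 and 7.64 TPM in CBX7, while the receptors NOTCH1 and NOTCH2 are the most abundant of the 10 genes and DLL1, DLL4 and NOTCH3 lie under 0.2 TPM.

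NOTCH2 and NOTCH1 were the receptors that T24 cells expressed at a level well above the limit of detection. NOTCH2 had 28.8 and 38.6 TPM in CON and 12.6 and 34.8 TPM in CBX7, and NOTCH1 had 11.9 and 14.0 TPM in CON and 11.4 and 18.7 TPM in CBX7. In CPM the groups overlapped for each receptor. Together the 4 receptors summed to 41.1 and 52.9 TPM in CON and to 24.4 and 53.6 TPM in CBX7, of which NOTCH2 made up 51.8% to 73.1%.

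NOTCH1 had counts of 1958 and 2024 in CON and of 2211 and 2841 in CBX7, a log2 fold change of 0.29 (SE 0.20). Without CBX7 replicate 1 this value was 0.52, and without CBX7 replicate 2 it was 0.038. NOTCH2 had counts of 5837 and 6697 in CON and of 3044 and 6302 in CBX7, a log2 fold change of -0.47 (SE 0.38). The value rested on CBX7 replicate 1: without it the value was 0.0071, and without CBX7 replicate 2 it was -1.16. NOTCH2 is a long transcript (11425 bases in the deposited table), and after the correction for length and GC content the value was -0.36. NOTCH2NLA, NOTCH2NLB and NOTCH2NLC are partial copies of NOTCH2, and reads that match both could have been split between them, so the counts of NOTCH2 are uncertain.

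NOTCH3 and NOTCH4 were near or under the limit of detection. NOTCH3 had counts of 1 and 4 in CON and of 0 and 1 in CBX7, and NOTCH4 had 7 and 6 in CON and 10 and 3.49 in CBX7. The groups overlapped for NOTCH4 and for NOTCH3, and neither had enough counts to be tested. The deposited TPM of NOTCH3 (0.18 in CON replicate 1 from 1 count, 0.05 in CON replicate 2 from 4 counts) did not follow its counts.

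HES1, the classical target and a repressor of differentiation genes, was not higher where JAG2 was higher. HES1 had counts of 128 and 80 in CON and of 97 and 93 in CBX7, or 5.36 and 3.81 CPM against 4.02 and 4.16 CPM. The groups overlapped, and the log2 fold change was -0.17 (SE 0.24). HEY1, a HES-related repressor, had counts of 49 and 35 in CON and of 44 and 37 in CBX7. The groups overlapped in counts and CPM, with a log2 fold change of -0.10 (SE 0.28). In TPM HEY1 had 1.37 and 1.29 in CON and 1.15 and 1.15 in CBX7, so the groups did not overlap on that scale. For both genes the sign turned when CON replicate 1 was left out, to 0.10 for HES1 and 0.059 for HEY1. The 95% interval of the log2 fold change ran from -0.78 to 0.44 for HES1 and from -0.81 to 0.61 for HEY1. Without CON replicate 1 the SEs were wider, 0.46 and 0.57.

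Of the 10 genes, 6 had enough counts to be tested, 2 were at or under 3 counts on average in both groups (DLL4 and NOTCH3), and DLL1 and NOTCH4 had a few counts. Of the 5 tested members other than JAG2, 1 had a positive log2 fold change and 4 a negative one, from -0.47 to 0.29. Their median was -0.17, and the median over all tested genes was 0.0017. Of all tested genes, 0.0202% passed the adjusted threshold in edgeR, and 3.42% were higher and 1.32% lower at an unadjusted p under 0.05. The Wald test of DESeq2 called 0.451%. None of the 5 members passed the adjusted threshold or an unadjusted p of 0.05 in edgeR, and the Wald test of DESeq2 called none of them. With 1 library left out some did: without CBX7 replicate 1, when 388 genes of the table were called, NOTCH1 passed (adjusted p = 0.000248, edgeR), and without CBX7 replicate 2, when 5474 were called, NOTCH2 (adjusted p = 8.37e-25, edgeR) and JAG1 (adjusted p = 0.0394, edgeR) did.

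Levels were compared between genes in TPM. By the mean over the 4 libraries the order was NOTCH2 (28.7 TPM), NOTCH1 (14.0), HES1 (4.19), JAG2 (3.96), JAG1 (3.76), HEY1 (1.24), NOTCH4 (0.225), DLL1 (0.0825), NOTCH3 (0.06) and DLL4 (0.0275). The place of JAG2 in this order is a mean of unlike groups: in both CON libraries it lay below HES1, JAG1 and HEY1, and in both CBX7 libraries it lay above all 3 and below NOTCH1 and NOTCH2. The values of NOTCH2 and NOTCH1 overlapped in the CBX7 libraries, and those of HES1 and JAG1 overlapped in both groups. The lowest 3 genes could not be ordered at this depth.

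To ask whether other targets moved with JAG2, 9 further target genes were read from the same comparison. HES4, HES7, NRARP and MYC had higher values in both CBX7 libraries than in both CON libraries, as did 15.4% of all tested genes, and none passed the adjusted threshold. NRARP, the feedback inhibitor, had counts of 29 and 19 in CON and of 100 and 88 in CBX7, or 1.22 and 0.905 CPM against 4.14 and 3.94 CPM. It differed by 1.92 on the log2 scale (SE 0.28, 95% interval 1.22 to 2.61), at rank 46 of the 14862 genes, with an adjusted p of 0.26 in edgeR. The Wald test of DESeq2, which called 0.451% of the genes it tested, gave NRARP an adjusted p of 0.0168. Over all alternatives of processing that kept the 4 libraries the adjusted p of NRARP ran from 3.00e-06 to 0.266. After the correction for length and GC content its value was 1.66. NRARP passed the adjusted threshold without CON replicate 1 (2.15), without CBX7 replicate 1 (1.89) and without CBX7 replicate 2 (1.95), fits in which 54, 388 and 5474 genes of the whole table passed. Without CON replicate 2 its value was 1.73 and it did not pass (adjusted p = 0.265, edgeR).

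HES7, a repressor best known from the segmentation clock, had counts of 3 and 7 in CON and of 24 and 28 in CBX7. The difference was 2.29 on the log2 scale (SE 0.53, adjusted p = 0.57, edgeR), and the value rests on 10 counts in all in CON. Without CON replicate 1 it was 1.73 and without CON replicate 2 it was 3.10. HES7 had enough counts to be tested only through the CBX7 libraries, where it is high, and with at least 10 counts asked of every library it was left out. HES4, a HES family gene without a mouse counterpart, had counts of 179 and 162 in CON and of 494 and 224 in CBX7. HES4 differed by 1.00 on the log2 scale (SE 0.35, adjusted p = 0.941, edgeR). Without CBX7 replicate 1 the value of HES4 was 0.40, and after the correction for length and GC content it was 0.39.

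MYC and CCND1, which are targets in some cell types and have many other inputs, were abundant. MYC had 79.2 and 81.3 TPM in CON and 77.5 and 85.3 TPM in CBX7, with a log2 fold change on counts of 0.18 (SE 0.14), and its CBX7 libraries lay above its CON libraries in CPM. CCND1, the most abundant of the targets, had 205 and 234 TPM in CON and 173 and 242 TPM in CBX7, with a log2 fold change on counts of 0.032 (SE 0.13). HES5 had no count in any library, and HEY2, HEYL and DTX1 were at or under 3 counts on average in both groups.

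Counted together, 11 target genes (HES1 and HEY1 included) gave 7 with enough counts. No target passed the adjusted threshold in edgeR, 3 had an unadjusted p under 0.05 and were higher (HES4, HES7 and NRARP), and none was lower at that level. Since HES7 was tested only through the group where it is high, the count without it is 2 of 6, and the counts are not read as support. Among all tested genes 3.42% were higher and 1.32% lower at an unadjusted p under 0.05. The median log2 fold change of the 7 was 0.18, without HES7 (at least 10 counts in every library) it was 0.10, and after the correction for length and GC content it was 0.088. HES1 and HEY1 were the 2 of the 7 with values under 0.

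**Figure D2:**
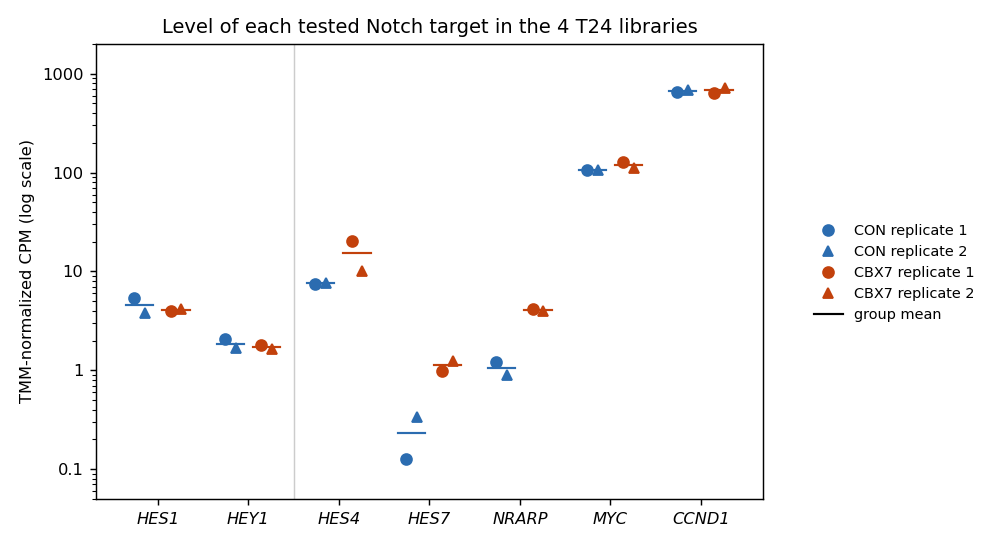
TMM-normalized CPM of the 7 target genes with enough counts on a log axis, CON in blue and CBX7 in orange, replicate 1 as circles and replicate 2 as triangles, and group means as lines. HES1 and HEY1 overlap between the groups, while NRARP lies at 0.905 and 1.22 CPM in CON and at 3.94 and 4.14 CPM in CBX7.

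The rest of the pathway was read from 59 genes outside the 10, the 9 targets above included, of which 49 had enough counts. None passed the adjusted threshold in edgeR, 6 were higher at an unadjusted p under 0.05 (NRARP, HES7, HES4, DLK2, LFNG and NEURL1) and 1 was lower (BHLHE41), against 3.42% and 1.32% of all tested genes. HES7 was tested only through the CBX7 libraries, and without it 5 of 48 were higher. The CBX7 libraries lay wholly above the CON libraries for 10 of the 49 and wholly below for 5, against 15.4% and 14.8% of all tested genes. The Wald test of DESeq2 called NRARP among the 49 and no other. The median log2 fold change of the 49 was -0.00041.

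DLK2, a Delta-like protein that lacks the DSL domain of the canonical ligands, had counts of 46 and 30.02 in CON and of 114 and 66 in CBX7, a log2 fold change of 1.19 (SE 0.34, adjusted p = 0.764, edgeR). LFNG, a Fringe enzyme that adds sugars to the receptor and shifts its preference among ligands, had counts of 18 and 16 in CON and of 71 and 29 in CBX7, a log2 fold change of 1.48 (SE 0.48, adjusted p = 0.901, edgeR). Without CBX7 replicate 1 the value of LFNG was 0.78. NEURL1, an E3 ubiquitin ligase that acts on ligands, had a log2 fold change of 0.78 (SE 0.30, adjusted p = 0.951, edgeR), and without CBX7 replicate 1 it was 0.42. BHLHE41, a repressor related to the HES proteins and part of the circadian clock, had counts of 315 and 218 in CON and of 186 and 176 in CBX7, a log2 fold change of -0.60 (SE 0.18, adjusted p = 0.833, edgeR).

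Leaving out a CBX7 library moved several of these calls. Without CBX7 replicate 2, where 5474 genes of the table passed the adjusted threshold, HES7 (2.12), LFNG (1.95), DLK2 (1.48), HES4 (1.43), NEURL1 (1.07) and BHLHE41 (-0.62) passed it too. Without CBX7 replicate 1, HES7 (2.46) and BHLHE41 (-0.58) passed it and the other 4 did not.

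The machinery that carries the signal was present in every library. The gene with the highest level in each group of the pathway was APH1A among the cleavage enzymes (114 TPM in CON and 108 TPM in CBX7), CTBP1 among the co-repressors (102 and 102 TPM), SNW1 in the nuclear complex (79.2 and 71.6 TPM), ITCH in receptor turnover (63.8 and 52.8 TPM), POFUT1 in receptor glycosylation (57.8 and 50.3 TPM), BHLHE40 among the HES relatives (28.7 and 26.4 TPM), and MIB1, which ubiquitinates ligands (21.5 and 17.3 TPM). The log2 fold changes of these genes lay between -0.38 and 0.025. The levels are group means: MIB1 had 9.14 and 25.4 TPM in the CBX7 libraries, and MIB2, of the same list, had 9.21 and 8.72 TPM. The 7 genes of the nuclear complex had fitted values under 0, from -0.65 to -0.00041 with a median of -0.15, and none passed an unadjusted p of 0.05. Of all tested genes 49.7% had a fitted value under 0. The median of the 7 was -0.097 after the correction for length and GC content, and without CBX7 replicate 1 it was 0.012, with 3 of the 7 under 0, and without CBX7 replicate 2 it was -0.34, with 6 of the 7 under 0.

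**Figure D3:**
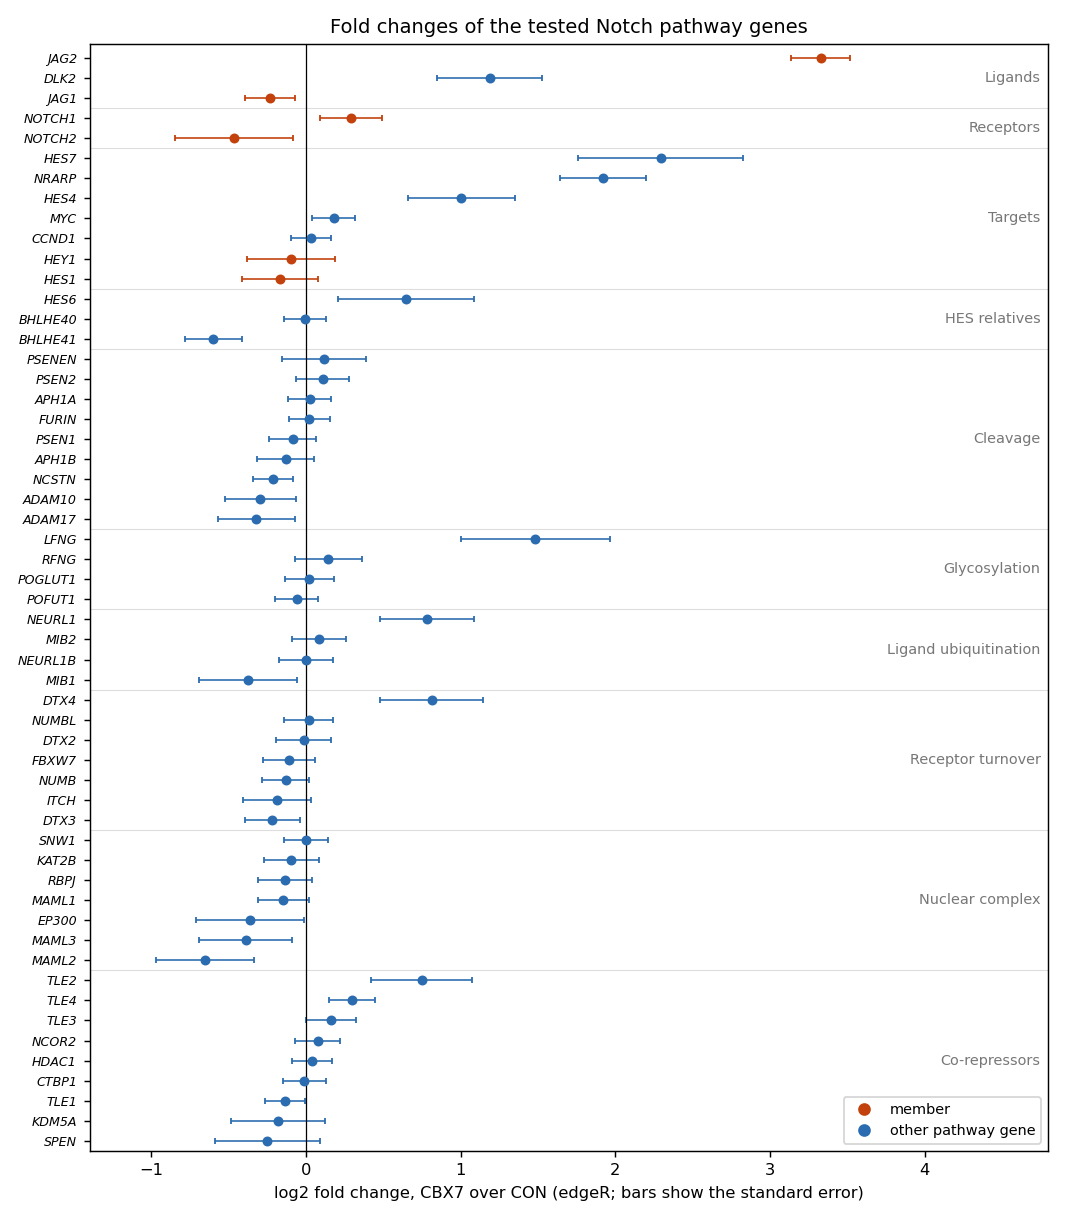
Log2 fold change of CBX7 over CON on counts, with its standard error, for the 55 tested genes of the pathway ordered by role, members in orange and the other genes in blue. JAG2 lies at 3.33, the targets HES7 and NRARP at 2.29 and 1.92, and the cleavage enzymes between -0.32 and 0.11.

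The difference in JAG2 was read against its position and against genes with a like pattern. Of the 10 nearest tested genes on chromosome 14, 5 on each side, none passed the adjusted threshold in edgeR, where the smallest adjusted p was 0.597, and 1 had an unadjusted p under 0.05, NUDT14, which is separated from JAG2 by 4.11 kb, where 3.42% of all tested genes were higher at that level. The CBX7 libraries lay wholly above the CON libraries for 3 of the 10 (CLBA1, NUDT14 and AL928654.4) and wholly below for 0, against 15.4% and 14.8% of all tested genes. The Wald test of DESeq2 called 0 of the 10. The log2 fold changes of CEP170B, AHNAK2, CLBA1, CDCA4 and LINC02298 on one side, and of NUDT14, BRF1, BTBD6, PACS2 and AL928654.4 on the other, ran from -0.11 to 0.84. NUDT14 had counts of 126 and 91 in CON and of 228 and 174 in CBX7, a log2 fold change of 0.84 (SE 0.21, adjusted p = 0.597, edgeR). The genes whose 4 log2 CPM values, each centred on its own mean, lay nearest to those of JAG2 were EEF1A2, a translation elongation factor (root mean square difference 0.143), AC008012.1, MFAP2, a protein of elastic microfibrils (0.372), DUSP9, a MAP kinase phosphatase (0.439), and IGF2, a growth factor (0.481). The likeness was taken over 4 libraries and says nothing of shared control. AC008012.1 had no count in either CON library, so its distance depends on the value added before taking logs and is not given.

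**Figure D4:**
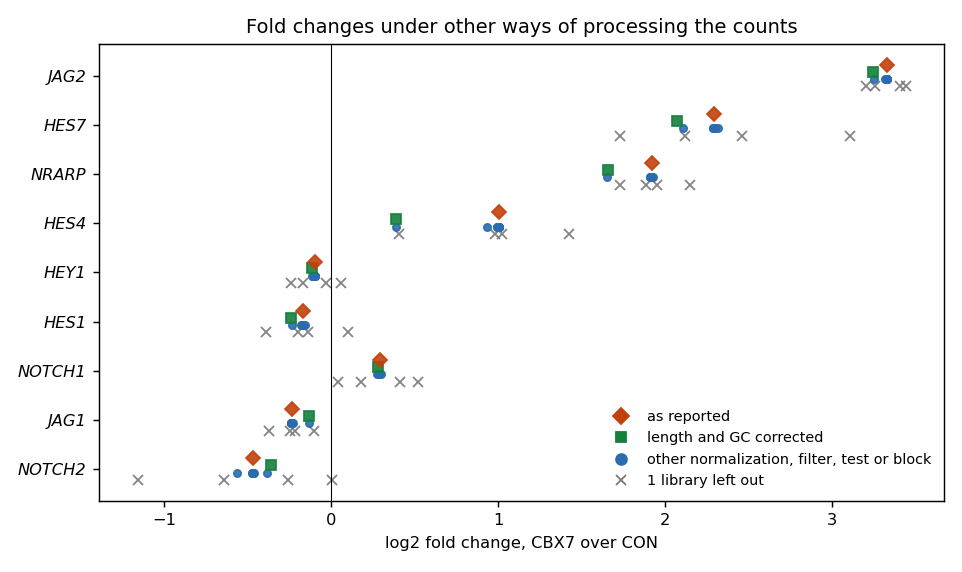
Log2 fold changes of the 6 tested members and of NRARP, HES7 and HES4 as reported (diamonds), after the length and GC correction (squares), under the other normalizations, filters, tests and block (circles) and with 1 library left out (crosses). JAG2 stays between 3.20 and 3.44 with 1 library left out, HES1 and HEY1 lie on both sides of 0, and HES4 falls from 1.00 to 0.39 after the correction.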

How the data were processed

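RNA of T24 cells was measured in 2 CON and 2 CBX7 libraries. The table deposited by the authors gives for every gene and library an estimated count, which is not normalized and is whole in 88.2% to 88.9% of entries, and a TPM level. It also gives gene lengths and, in columns that were not used, the fold changes and p-values of the authors' comparison. The submitters' processing notes name cutadapt 1.9.1, HISAT2 2.0.1, HTSeq 0.6.1, DESeq2 and hg19, with no role, and the tool behind counts that are not whole is not settled by them. Of 60623 gene identifiers, 58516 (96.5%) were found in GENCODE release 29 on GRCh38, which gave coordinates and need not be the annotation of the authors, and promoter windows came from RefSeq on GRCh38.p14.

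After rounding, low genes were removed with filterByExpr, libraries were scaled with TMM, and groups were compared in edgeR 4.0.16 (R 4.3.3) by glmQLFit and glmQLFTest with condition as the only term, and p-values were adjusted over all 14862 genes tested. SE was taken from the fold change and its F statistic. The scripts were tested on simulated data. Members and gene lists were chosen with earlier results of these data known. The genes named are the members, pathway genes with an unadjusted p under 0.05, the gene of highest mean TPM in each list, the 5 genes nearest to JAG2 in pattern, its nearest genes, and every gene called. MYC, MIB2, MAML2, the partial copies of NOTCH2, the targets with few counts and the marker genes were named beside this rule, with their values known. RBPJ was named only to describe the pathway and its motif. An exact permutation test of 2 against 2 libraries cannot go under 0.333, so p-values rest on the spread shared across genes, which may be technical. The libraries of a group differed by more than counting error (chi-square per degree of freedom 6.49 in CON and 59.7 in CBX7), so none was a copy. The alternatives were the size factors of DESeq2 1.42.0, upper-quartile scaling, the Wald test of DESeq2, every gene with a count kept, a minimum of 10 counts per library, a length and GC correction by natural splines of 4 degrees of freedom, the replicate number as a term, that term with the correction, the newer quasi-likelihood form, each library left out, log2(TPM + 0.1) and log2(TPM + 1), and other thresholds.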

Additional observations from a re-analysis of the deposited data

How the results depend on the processing

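The log2 fold change of JAG2 stayed between 3.20 and 3.51 in every alternative except log2(TPM + 1), where it was 2.42, a scale that understates the change of low genes. The median of the 5 other tested members was -0.17 and ran from -0.24 to 0.059 as each library was left out, the highest value being without CON replicate 1. The median of the targets stayed above 0 in every alternative run, from 0.019 to 0.28. The corrected and left-out values of the nuclear complex were chosen after seeing the data.

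The edgeR test called 3 genes of the table, and the count was 67 with the Wald test of DESeq2, 265 with no filter (infinite prior degrees of freedom, against 3.61), 5 after the length and GC correction, 1 at an adjusted p under 0.01, and from 37 to 5474 as each library was left out, the highest count being without CBX7 replicate 2. A group left with 1 library was assumed to vary like the other group. Among the 49 other pathway genes the count was 0, and it was 1 with the Wald test of DESeq2 (NRARP), 5 with no filter (DLK2, HES4, HES7, LFNG and NRARP), 7 at an unadjusted p under 0.05, and from 0 to 23 as each library was left out, with 23 without CBX7 replicate 2.

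The replicate numbers are shared by the groups, but nothing says that they mark a common batch, and 2 pairs cannot establish it (correlation of same-numbered deviations 0.31 across genes). With the replicate block the count was 361, which held 6 of the 49 other pathway genes (DLK2, HES4, HES7, LFNG, MAML2 and NRARP) and, of the members other than JAG2, NOTCH2 (log2 fold change -0.57, adjusted p = 0.034, edgeR). With the block and the length and GC correction the count was 72, with 0 of the 49, and NOTCH2 was not called (-0.39, adjusted p = 0.244, edgeR). The log2 fold change of JAG2 was 3.33 with the replicate block.

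Depth limited DLL1, DLL4, NOTCH3, NOTCH4, HES5, HEY2, HEYL and DTX1, where differences of a few counts could not be measured. The causes of these shifts were not tested.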
